A study of Mus musculus with 6 samples.

Results

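The miR-130 and miR-301 family was followed through small RNA libraries of mouse embryonic fibroblasts that lacked Fbxw7 or were wild type. Its members were chosen by name, as the rows Mir130a, Mir130b, Mir301 (the hairpin of miR-301a) and Mir301b, which are 4 of the 1155 miRNA rows counted. There were 3 Fbxw7 KO and 3 WT libraries, made from fibroblasts of both genotypes grown in DMEM with serum and non-essential amino acids. The labels give genotype and replicate number, and name neither the Fbxw7 allele nor how it was removed. Because no label ties a library to its own embryo or dish, each p-value refers to the spread between libraries and that spread may be technical. FBXW7 picks the proteins that an SCF ubiquitin ligase sends to the proteasome, Myc and cyclin E among them, and the study set knockout against WT cells to find the miRNAs related to it. The Fbxw7 transcript itself was not analysed here.

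A mature miRNA guides the silencing complex to mRNAs mainly through its seed, the short stretch near its 5′ end, so miRNAs with one seed can repress overlapping sets of transcripts. The miR-130 and miR-301 miRNAs share a seed and are known as repressors of Tsc1 and Pparg, and they have been studied in blood vessel growth, adipocyte differentiation, tumour growth and fibrosis. miR-130a was described in human endothelial cells as a repressor of antiangiogenic homeobox genes. miR-301a was described in human pancreatic cancer cells as an activator of NF-κB through repression of NKRF.

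The 3′ arms are shown first, because they carry the shared seed (bases 2 to 8, in capitals) and because the bases after it divide the family. Sequences are from RefSeq on GRCm38.p6, where all 4 hairpins were found by symbol with the coordinates of the count table. Mir301b is shown by the stretch of its hairpin that begins 1 base before the seed.
miR-130a-3p: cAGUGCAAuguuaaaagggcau
miR-130b-3p: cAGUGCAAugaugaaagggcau
miR-301a-3p: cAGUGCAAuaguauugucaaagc
Mir301b hairpin stretch: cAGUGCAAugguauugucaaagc

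Counted from 1 at the 5′ end, miR-130a-3p and miR-130b-3p differed at 2 of 22 bases, U11A and A13G. The miR-301a-3p and Mir301b stretches differed at 1 of 23 bases, A10G. Between a miR-130 and a miR-301 sequence, 9 to 11 of the first 22 bases differed, all of them 3′ of the seed. The family thus held 2 near-identical pairs under 1 seed.

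The 5′ arms are shown because reads of either arm fall into the same count, and their seeds (bases 2 to 8, in capitals) are not those of the 3′ arms. The 2 miR-301 hairpins share their 5′ arm seed, and the 2 miR-130 hairpins have different ones.
miR-130a-5p: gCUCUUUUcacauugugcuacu
miR-130b-5p: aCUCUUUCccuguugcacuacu
miR-301a-5p: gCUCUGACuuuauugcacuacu
miR-301b-5p: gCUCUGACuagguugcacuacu

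The most similar hairpins, those of Mir301 and Mir301b, are given whole to show what a read must cover to tell them apart. Their longest shared run, in capitals, is 16 bases. The longest run shared by the other pairs of members was 12 to 14 bases.
Mir301 hairpin: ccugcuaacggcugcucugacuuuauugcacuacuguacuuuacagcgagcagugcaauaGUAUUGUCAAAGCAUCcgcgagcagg
Mir301b hairpin: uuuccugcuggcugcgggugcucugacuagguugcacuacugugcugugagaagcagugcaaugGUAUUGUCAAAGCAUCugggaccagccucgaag

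The hairpins lie at 3 places in the mouse genome (mm10). Mir130a is on chromosome 2 (84741115 to 84741178, minus strand), outside the genes of GENCODE M21, with the protein-coding gene Gm19426 on the same strand 990 bases away. Mir301 is on chromosome 11 (87113004 to 87113089, plus strand) in an intron of Ska2, which encodes a spindle and kinetochore protein, on the same strand. Mir130b (17124061 to 17124142) and Mir301b (17124400 to 17124496) lie on the minus strand of chromosome 16, 257 bases apart, in an intron of the protein-coding gene 2610318N02Rik on the same strand. The pair thus holds 1 hairpin of each kind, a miR-130 and a miR-301. No other counted row overlapped any of the 4, so none of them loses reads to an overlapping row.

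The libraries held 2932439 to 3753353 counts in Fbxw7 KO and 3707576 to 5019700 in WT, of which 1008 to 1185 and 1386 to 1711 fell on the 4 hairpins. A list of 7 fibroblast rows, most of its counts from Mir21a and Mir143, held 52.0% to 55.3% of counts in Fbxw7 KO and 51.3% to 52.3% in WT. Of its 6 tested rows edgeR called Mir31 (log2 fold change 1.77, adjusted p = 0.000666) and Mir199b (0.65, adjusted p = 0.0203) higher and Mir10a (−0.89, adjusted p = 0.00179) lower in Fbxw7 KO. The untested row of this list, Mir199a-1, had only 14 counts in Fbxw7 KO and 18 in WT. Of all tested rows 15.2% were called higher and 10.2% lower. Both endothelial marker rows stood at 0 counts, as did 4 of 5 muscle rows, 3 of 8 neuronal rows and 1 of 4 blood cell rows. Reads with several alignments are left out of these counts and a row can stand at 0 for other reasons, so a row at 0 does not show that its cell type was absent. Why these rows stood at 0 was not tested. The blood cell list held at most 0.000273% of counts in Fbxw7 KO and 0.000418% in WT. The epithelial list held at most 0.00618% in Fbxw7 KO and 0.00262% in WT, and the muscle list 0.0405% in Fbxw7 KO and 0.0227% in WT. All counts of the muscle list came from Mir206, with 2845 in Fbxw7 KO and 2217 in WT. The neuronal list held at most 0.0192% in Fbxw7 KO and 0.0176% in WT, and the part of these cell types in the results was not tested. Levels are given as CPM, counts scaled to a common library size with edgeR's TMM factors. In this small RNA table fewer cells and less RNA per cell cannot be told apart.

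No difference between genotypes passed the test for any of the 4 hairpins. All 4 passed the low-count filter and 0 of 4 passed edgeR's quasi-likelihood test (Benjamini-Hochberg adjusted p under 0.05 over 283 rows), where 25.4% of all tested rows did. At an unadjusted p under 0.05 the count was also 0 with edgeR and with limma on the authors' FPKM, and 1 (Mir130b, p = 0.0481) with DESeq2, which called 0 after adjustment. Other settings took the unadjusted p of Mir130b below 0.05 too, to 0.036 with edgeR on TMM factors outside the imprinted Dlk1-Dio3 region of chromosome 12, 0.049 with edgeR without the low-count filter or without Fbxw7 KO replicate 2, and 0.0472 with limma without the filter, with adjusted p of 0.105 to 0.252. The estimates pointed up for Mir130a and down for the other 3, with a median log2 fold change of −0.26 over the 4 and 0.05 over all tested rows. By mean CPM, which takes no account of length, they ranked 112th (Mir130a), 131st (Mir130b), 167th (Mir301) and 255th (Mir301b) of the 283.

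Per hairpin length, Mir130a was the most abundant member, with 2975 ± 93.8 FPKM in Fbxw7 KO and 2667 ± 244 FPKM in WT (the authors' values, SD, n = 3). Mir130b followed with 1108 ± 270.0 FPKM in Fbxw7 KO and 1459.6 ± 112 in WT. Mir301 had 549.6 ± 61.5 FPKM in Fbxw7 KO and 600.5 ± 148 in WT. Mir301b was far lower, with 40.6 ± 17.9 FPKM in Fbxw7 KO and 51.1 ± 14.0 in WT. This order held in each library, and the FPKM ranges of neighbours in it did not overlap: the lowest Mir130b value, 797, lay just above the highest Mir301 value, 768. In CPM, which ignores length, the ranges of these 2 met, at 64.3 for the lowest Mir130b library and 66.3 for the highest Mir301 library.

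**Figure D1:**
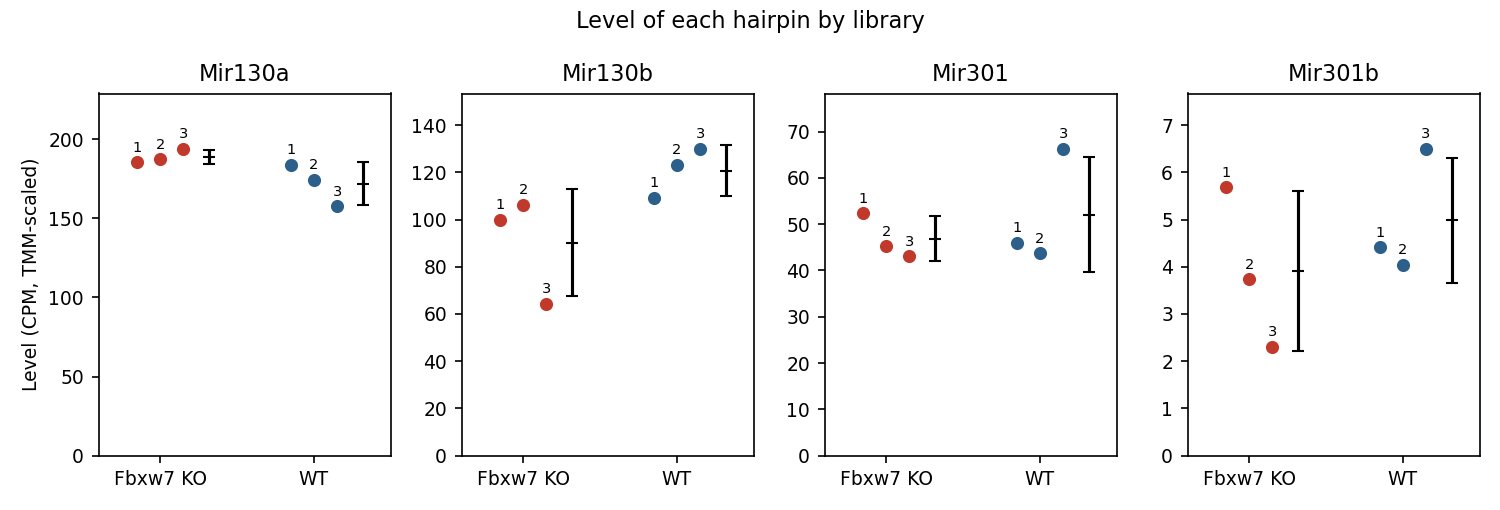
Level of the 4 hairpins in CPM (TMM-scaled, vertical axes from 0, a scale for each panel) in the Fbxw7 KO libraries (red) and the WT libraries (blue), with replicate numbers above the points and the mean with SD (n = 3) beside them. The Fbxw7 KO points lie below the WT points for Mir130b (64.3 to 106.3 against 109.2 to 129.99) and above them for Mir130a (185.5 to 193.9 against 157.5 to 183.8), and the groups overlap for Mir301 and Mir301b.

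Mir130a had the most counts of the family in each library, with both arms in 1 count. In Fbxw7 KO replicates 1 to 3 it had 185.5, 187.2 and 193.9 CPM. In WT replicates 1 to 3 it had 183.8, 174.5 and 157.5 CPM. The Fbxw7 KO libraries lay close together and above the WT libraries, but the gap to WT replicate 1 was under 2 CPM. The means were 188.9 ± 4.46 CPM in Fbxw7 KO and 172.0 ± 13.3 CPM in WT (SD, n = 3), a log2 fold change of 0.14 (95% interval −0.18 to 0.45, edgeR adjusted p = 0.508). The groups overlapped with RLE factors and with TMM factors taken outside Dlk1-Dio3, where the value was 0.01. That scaling moved the median over the 283 tested rows to −0.07, against 0.05 with the TMM factors used here, so the shift between scalings was about as large as the value of Mir130a. Between its 1896 Fbxw7 KO counts and 2256 WT counts shares of all counts stood at a ratio of 1.14, with a 95% interval of 1.07 to 1.21 that covers counting error and not the spread between libraries.

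Mir130b, known in tumour cells as a repressor of Tp53inp1, had the lowest p of the 4. It had 100.02, 106.3 and 64.3 CPM in Fbxw7 KO replicates 1 to 3, against 109.2, 123.2 and 129.99 CPM in WT replicates 1 to 3. Every Fbxw7 KO library lay below every WT library, also under RLE factors, library totals alone and TMM factors outside Dlk1-Dio3. The means were 90.2 ± 22.7 CPM in Fbxw7 KO and 120.8 ± 10.6 CPM in WT (SD, n = 3), a log2 fold change of −0.42 (SE 0.208, 95% interval −0.89 to 0.05, edgeR adjusted p = 0.182). Much of this came from Fbxw7 KO replicate 3, and without it the log2 fold change was −0.22 (adjusted p = 0.346). Groups without overlap were found for 2 of the 4 hairpins, Mir130a and Mir130b, and for 43.8% of all tested rows. Fbxw7 KO lay below WT in 20.1% of all tested rows and above it in 23.7%.

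Mir301, the hairpin in the Ska2 intron, had 52.4, 45.2 and 43.0 CPM in Fbxw7 KO replicates 1 to 3, against 45.96, 43.7 and 66.3 CPM in WT replicates 1 to 3. WT replicate 3 stood above the other 5 libraries, which overlapped. The means were 46.9 ± 4.89 CPM in Fbxw7 KO and 52.0 ± 12.4 CPM in WT (SD, n = 3), a log2 fold change of −0.15 (95% interval −0.62 to 0.32, edgeR adjusted p = 0.647). Without WT replicate 3 the value was 0.05 (adjusted p = 0.857), so the direction rests on that library.

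Mir301b, the neighbour of Mir130b, was near the limit of the counts. It had 18, 11 and 9 counts in Fbxw7 KO replicates 1 to 3, against 22, 17 and 25 counts in WT replicates 1 to 3. The lowest of these, 9 counts, has a 95% Poisson interval of 4.12 to 17.1 and the highest, 25 counts, one of 16.2 to 36.9, counting error only. As levels these were 5.68, 3.74 and 2.31 CPM in Fbxw7 KO and 4.42, 4.04 and 6.50 CPM in WT, and the groups overlapped. The log2 fold change was −0.36 (95% interval −1.21 to 0.49, edgeR adjusted p = 0.511). Over all libraries 38 Fbxw7 KO and 64 WT counts put the ratio of their shares at 0.803 with a 95% Poisson-based interval of 0.523 to 1.22. Single libraries moved the log2 fold change to −0.74 (Fbxw7 KO replicate 1 left out), −0.05 (Fbxw7 KO replicate 3 left out) or −0.15 (WT replicate 3 left out).

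**Figure D2:**
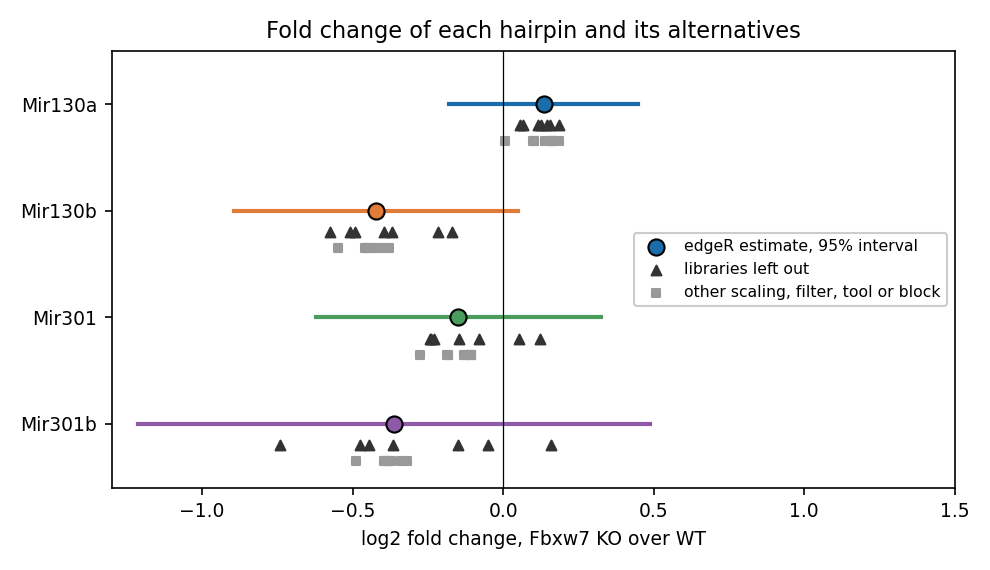
Log2 fold change of each hairpin, Fbxw7 KO over WT (horizontal axis). Circles with lines are the edgeR estimate and its 95% interval, triangles the values with libraries left out, and squares those with another scaling, filter, tool or block. All 4 intervals span 0, and the squares stay on 1 side of 0 for each hairpin while triangles cross it for Mir301 and Mir301b.

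The fold changes of the hairpins can also be set against each other within a library, where scaling cancels. The log2 ratio of Mir301b to Mir130b counts, the 2 hairpins of the chromosome 16 pair, was −4.10, −4.77 and −4.73 in Fbxw7 KO replicates 1 to 3, against −4.60, −4.89 and −4.29 in WT replicates 1 to 3. The difference of the means was 0.06 (exact 2-sided permutation p = 0.8 over libraries, where 3 against 3 cannot go below 0.1). The 2 groups overlapped, and the direction of the difference turned when Fbxw7 KO replicate 1 or WT replicate 2 was left out.

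The log2 ratio of Mir130b to Mir130a, the pair that differs at 2 bases of the 3′ arm, was −0.89, −0.81 and −1.59 in Fbxw7 KO replicates 1 to 3, against −0.75, −0.50 and −0.28 in WT replicates 1 to 3. Each Fbxw7 KO library had less Mir130b per Mir130a than each WT library. The means were −1.10 ± 0.428 in Fbxw7 KO and −0.51 ± 0.237 in WT (SD, n = 3), a difference of −0.59 (exact permutation p = 0.1, the smallest that 3 against 3 can give). This ratio and the other 4 pairs were added after the values were seen. Adjusted over the 6 pairs the p was 0.6, and without Fbxw7 KO replicate 3 the difference was −0.34. The other 4 pairs differed by −0.53 to −0.26 between genotypes, with exact permutation p of 0.2 to 0.6 and adjusted p of 0.6 to 0.72.

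As a share of all counts, the total of the family differed by less than its spread between libraries. Together the 4 hairpins held 0.0347%, 0.0344% and 0.0316% of all counts in Fbxw7 KO replicates 1 to 3, against 0.0341%, 0.0318% and 0.0374% in WT replicates 1 to 3. The means were 0.0335% ± 0.00171 in Fbxw7 KO and 0.0344% ± 0.0028 in WT (SD, n = 3), a difference smaller than either SD. In TMM-scaled CPM the total was 343.6, 342.5 and 303.6 in Fbxw7 KO replicates 1 to 3. In WT replicates 1 to 3 it was 343.4, 345.4 and 360.3, and the groups overlapped. These means were 329.9 ± 22.8 in Fbxw7 KO and 349.7 ± 9.25 in WT (SD, n = 3). Their difference of −19.8 was smaller than the Fbxw7 KO SD but larger than the WT SD, and it was not tested. Mir130a held 54.0%, 54.7% and 63.9% of the family's counts in Fbxw7 KO, against 53.5%, 50.5% and 43.7% in WT. Mir130b held 29.1%, 31.1% and 21.2% in Fbxw7 KO, against 31.8%, 35.7% and 36.1% in WT. Fbxw7 KO replicates 1 and 2 and WT replicate 1 were close to each other in this make-up, and the widest gap lay between the 2 libraries numbered 3. The miR-130 hairpins together held 83.1% to 85.7% of the family's counts in Fbxw7 KO and 79.8% to 86.2% in WT.

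**Figure D3:**
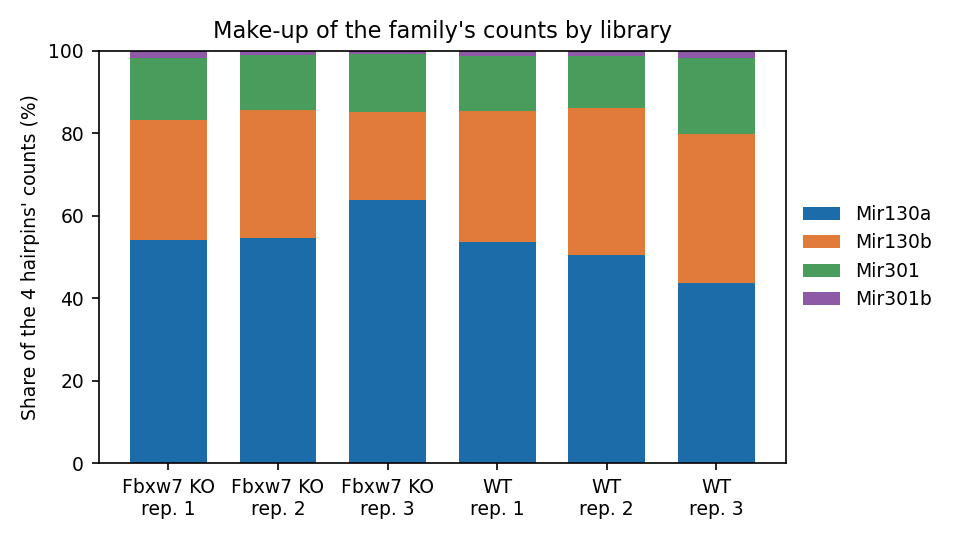
Share of the 4 hairpins' counts held by each (vertical axis, percent, stacked to 100) in the Fbxw7 KO and WT libraries. Mir130a takes its largest share in Fbxw7 KO replicate 3 (63.9%) and its smallest in WT replicate 3 (43.7%), while Mir301b stays under 2% throughout.

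The same 2 libraries were the extremes of all 4 hairpins in CPM, as they were for 19.1% of all tested rows. Mir130b, Mir301 and Mir301b were each highest in WT replicate 3 and lowest in Fbxw7 KO replicate 3, an order found in 6.01% of all tested rows. Mir130a had the opposite order, found in 13.1%. With library totals alone the lowest library was WT replicate 2 for Mir130a and Mir301 instead, and with TMM factors outside Dlk1-Dio3 the highest library was WT replicate 1 for Mir130a. Leaving out both libraries, a choice made after the values were seen, gave log2 fold changes of 0.06 for Mir130a, −0.17 for Mir130b, 0.12 for Mir301 and 0.16 for Mir301b, none of which passed the edgeR test (adjusted p 0.324 to 0.757).

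**Figure D4:**
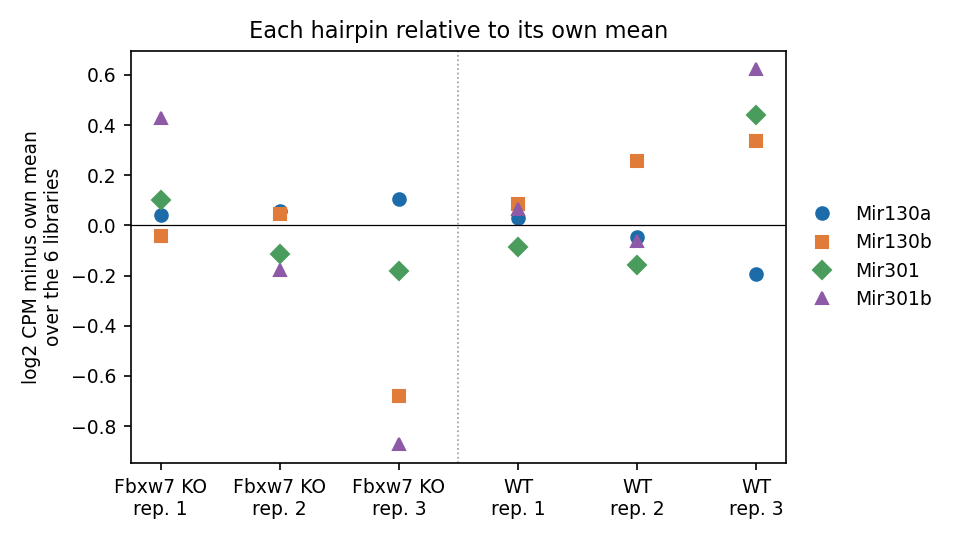
Log2 CPM of each hairpin minus its own mean over the 6 libraries (vertical axis), by library, Fbxw7 KO left of the dotted line and WT right of it. In WT replicate 3 Mir130a is lowest and the other 3 hairpins are highest, and in Fbxw7 KO replicate 3 this is turned round.

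For each hairpin, the 3 tested rows with the closest profile were found by the root mean square difference of centred log2 CPM over the 6 libraries. Those closest to Mir130b were Mir431, Mir300 and Mir673 (0.0881, 0.102 and 0.12), and all 3 lie in the Dlk1-Dio3 region on chromosome 12, which holds 41 of the 283 tested rows. Their log2 fold changes were −0.54 for Mir431 (edgeR adjusted p = 0.0494, a call that ended in 6 of 17 alternatives), −0.32 for Mir300 and −0.44 for Mir673. Those closest to Mir130a were Mir26b, Mir21a and Mir3095 (0.0516, 0.0526 and 0.0652), with log2 fold changes of 0.14, 0.15 and 0.17. Mir301 was closest to Mir129-1, Mir3061 and Mir744 (0.0825, 0.104 and 0.115). Mir301b was closest to Mir7219 and Mir129-1 (0.196 and 0.221), and its genomic neighbour Mir130b came next at 0.253. Mir130b in turn had 44 tested rows closer to it than Mir301b, and 119 closer than Mir130a. No member was another member's closest row.

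**Figure D5:**
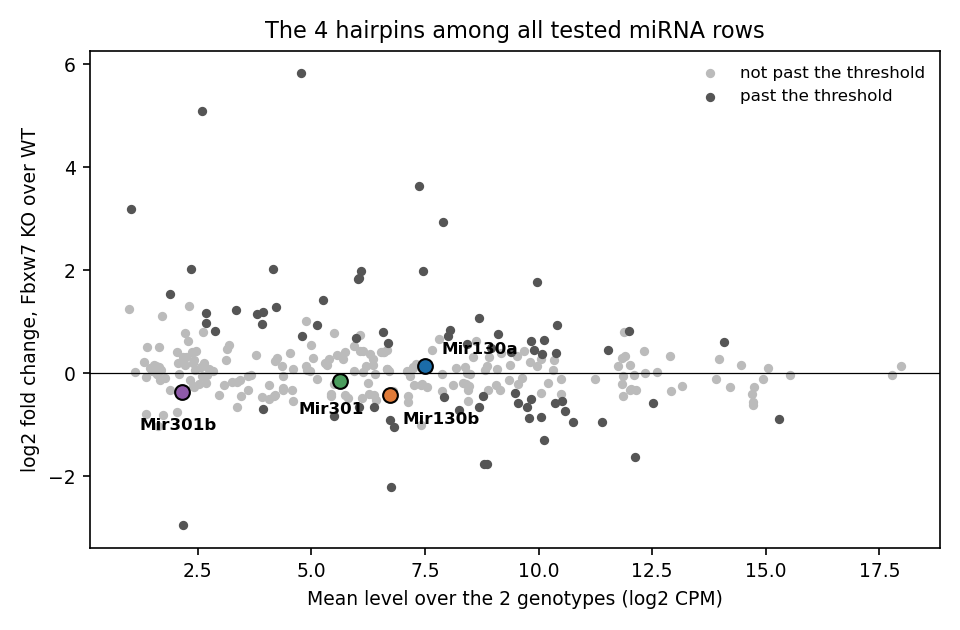
Log2 fold change, Fbxw7 KO over WT (vertical axis), against mean level in log2 CPM (horizontal axis) for the 283 tested rows, dark where past the threshold. The 4 hairpins, in colour, are all short of the threshold, and 118 rows show a larger change in either direction than Mir130b, at −0.42.

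The seed of the family occurs at bases 2 to 8 of 7 of the 1738 mature entries in the RefSeq table. This table has no entry for the 3′ arm of Mir301b, so the search can miss carriers of the seed. Beside those of Mir130a, Mir130b and Mir301 these are 4 entries whose rows all stood at 0 counts in each library, which by counting error alone allows a share of up to 0.000102% of a library (3 counts of its total). A row can stand at 0 in this table for other reasons: Mir222 did so in all libraries, while its cluster partner Mir221 had 32521 counts in Fbxw7 KO and 55543 in WT. The 4 entries are printed to show that they part from the family 3′ of the seed.
miR-130c: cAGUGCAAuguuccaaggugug
miR-721: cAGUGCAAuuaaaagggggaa
miR-6341: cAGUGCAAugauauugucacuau
miR-6389: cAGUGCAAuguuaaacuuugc

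Among the rows found to carry this seed, counts therefore came only from the 4 hairpins. These held 0.0316% to 0.0374% of counts in a library with both arms included. The seeds of the miR-148 and miR-19 families hold much of the same run shifted by 1 base, and they are shown with the part shared with the start of miR-130a-3p in capitals.
miR-148a-3p: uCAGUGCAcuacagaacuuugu
miR-148b-3p: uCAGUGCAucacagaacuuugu
miR-152-3p: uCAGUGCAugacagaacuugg
miR-19b-3p: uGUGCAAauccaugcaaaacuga

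The miR-148 family, studied for its repression of DNA methyltransferase transcripts, held far more of the counts than the miR-130 and miR-301 family. Of the 6 rows with a shifted seed 3 were tested, and 1 of these was called higher and 0 lower in Fbxw7 KO, with a median log2 fold change of 0.34. Among all tested rows 15.2% were called higher and 10.2% lower, with a median of 0.05. Mir148b rose to 1439.7, 1502 and 1639 CPM in Fbxw7 KO, against 1209, 1221 and 1042 CPM in WT (log2 fold change 0.40, edgeR adjusted p = 0.0465, a call that ended in 12 of 17 alternatives). Mir152 (0.34, adjusted p = 0.126) and Mir148a (0.11, adjusted p = 0.643, and −0.02 with TMM factors outside Dlk1-Dio3) did not pass, and with Mir148b they held 4.25% to 4.91% of counts in Fbxw7 KO and 3.59% to 4.29% in WT. Mir19a and Mir19b-1, of the miR-17 cluster, stood at 0 counts, and Mir19b-2 had 6 Fbxw7 KO counts and 1 WT count. These values do not show that miR-19 was absent, since reads with several alignments are not counted and a row can stand at 0 for other reasons. Why these rows stood at 0 was not tested.

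A list of other miRNAs studied in fibrosis was set beside the family. Of its 5 tested members 1 rose and 0 fell, against 15.2% called higher and 10.2% called lower of all tested rows, and their median log2 fold change was 0.30. Mir29a, a repressor of collagen genes, had 19458, 21927 and 21402 CPM in Fbxw7 KO, against 14576, 13468 and 12899 CPM in WT (log2 fold change 0.62, edgeR adjusted p = 0.00789, and 0.0512 without Fbxw7 KO replicate 2). Mir21a, which holds the most counts in the list, had an estimate of 0.15 on the log2 scale and did not pass (edgeR adjusted p = 0.338). It was 0.06 without WT replicate 3 and 0.02 with TMM factors outside Dlk1-Dio3.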

How the data were processed

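The authors deposited a count of reads for each miRNA name, from featureCounts 1.6.4 run without regard to strand, per the file headers. The recorded command does not switch on reads with several alignments, which the program then leaves out, so near-identical hairpins can lose counts. Both arms of a hairpin fall into 1 count. Per the submitters' processing notes, reads were handled on mm10 with deepTools, Cufflinks 2.2.1, SAMtools 1.5 and TopHat2 2.1.1 among the tools. Adapter trimming is not given in the sources used here. The authors also deposited FPKM values, which are proportional to count per feature length within each library.

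The 283 rows of 1155 that passed filterByExpr (minimum count 10, minimum total 15) entered a robust quasi-likelihood fit in edgeR 4.0.16 (R 4.3.3) with TMM factors and genotype as the single term, tested 2-sided. The SE was taken from the F statistic and 95% intervals from the test's degrees of freedom. DESeq2 1.42.0 and limma 3.58.1, with 1 or 0.1 added to the FPKM, served as alternatives, beside RLE factors, library totals alone, TMM factors outside Dlk1-Dio3, other filters, a replicate block and each library left out. Leaving out both libraries numbered 3 was added after seeing the data. Ratios of members had 0.5 counts added and profiles 0.5 CPM. Hosts and neighbours come from GENCODE M21. All 4 members, the rows of the seed lists, up to 2 called members and the one with the most counts in the fibrosis list, and the 3 rows closest to each member are named. The fibroblast marker rows, Mir206, Mir221 and Mir222 were named after their values were seen. One further list is not reported here. The members and lists were chosen with earlier results of these data known. Mir6341 and Mir6389 were added from the sequence search. Intervals on counts cover counting error only.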

Additional observations from a re-analysis of the deposited data

How the results depend on the processing

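Of the 4 hairpins, none passed the threshold under any of 17 alternatives (16 for Mir301b, which a mean of 10 CPM left out). Mir130b stayed negative (−0.58 to −0.17) and Mir130a positive (0.01 to 0.19). Without WT replicate 3 the log2 fold change turned to 0.053 for Mir301 (−0.24 to 0.053 over the 6 libraries left out in turn), 0.0017 for Mir3061 (−0.33 to 0.0017) and 0.038 for Mir744 (−0.20 to 0.038). With both libraries numbered 3 left out it was 0.12 for Mir301, 0.16 for Mir301b, 0.12 for Mir129-1, 0.017 for Mir3061 and 0.076 for Mir744. With TMM factors outside Dlk1-Dio3, Mir148a stood at −0.018. The ratio of Mir301b to Mir130b differed by −0.15 to 0.21 between genotypes, with −0.09 without WT replicate 2 and −0.15 without Fbxw7 KO replicate 1, and that of Mir301b to Mir301 by −0.49 to 0.0043, the highest without Fbxw7 KO replicate 3. The cause was not tested. The difference in the family's share of counts ranged from −0.00219 to 0.000596 percentage points with a library left out.

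The count of changed rows, 72, was 61 to 76 under the other settings, 34 to 78 with 1 library left out and 103 without both libraries numbered 3. With the replicate block it was 76, and no hairpin changed its call (Mir130a 0.14, Mir130b −0.45, Mir301 −0.13, Mir301b −0.37). Libraries with the same number deviated together with r = −0.0564, 0.136 and 0.157 across rows. Fbxw7 KO replicates 2 and 3 correlated best with the WT library of their own number, and Fbxw7 KO replicate 1 with WT replicate 2 (r = 0.151). No label says that equal numbers share a source, so the numbers were not taken as pairs. Mir301b rests on 9 to 25 counts a library.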
